A study of Rattus norvegicus with 8 samples.

Results

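Microglia and macrophages of the rat pineal gland were followed through 9 genes that these cells are known for: C1qa, C1qb, C1qc, Csf1r, Aif1, Cx3cr1, Itgam, Tyrobp and Cd68. They were taken by gene symbol from the deposited expression values, which cover 16462 symbols and 16932 RefSeq transcripts, and all 9 were found, each as 1 transcript. RNA was sequenced from whole pineal glands of Sprague-Dawley rats before birth, on embryonic day 21 (E21), and after it, on postnatal day 5 (P5), day 20 (P20) and day 40 (P40), to describe how the transcriptome develops and which transcripts differ between night and day. Every age has 1 library from mid-night (zeitgeber time 19) and 1 from mid-day (zeitgeber time 7), under 14 h of light and 10 h of dark, so the study holds 8 libraries. Each library is a pool of animals, 15 at mid-night and 13 at mid-day for E21, 19 and 17 for P5, 10 and 13 for P20, and 3 and 3 for P40. No treatment or sex is given, and a combination of age and time has no second library.

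Microglia are the resident macrophages of the central nervous system, and other macrophages sit around its vessels and in its coverings. The pineal gland has microglia and macrophages between its melatonin-making pinealocytes and lies outside the blood-brain barrier. These cells depend on the receptor CSF1R, sense the surface ligand fractalkine through CX3CR1, signal through the adaptor TYROBP and make C1q, the recognition molecule of the classical complement pathway. C1q is built of A, B and C chains in equal number, each with its own gene, and the myeloid transcription factor PU.1 (Spi1) controls many genes of the lineage.

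The FPKM of a transcript (fragments per kilobase of transcript, scaled to library size) is corrected for length, so levels of different genes can be set side by side on this scale. Between 8598 and 9533 transcripts reached 1 FPKM in a library. Depth was estimated from the lowest cluster of FPKM values of short transcripts, scaled by their span, with 27 to 41 values in each library. It puts 1 fragment per kilobase at about 0.0280 FPKM in the deepest library (P40 mid-night) and 0.0664 FPKM in the shallowest (P20 mid-day). These depths are approximate. Of the other cell types checked, erythroid genes summed highest at E21 (7119 to 12274 FPKM, against 1357 to 4859 FPKM at later ages). Choroid plexus genes summed to 17893 FPKM in the P5 mid-night library and to 3193 FPKM in the P5 mid-day library, against 680 to 1611 FPKM in the other 6. The mast cell genes Cpa3, Tpsab1 and Cma1 averaged at most 0.0215 FPKM at P40 and 2.46 to 3.34 FPKM at E21. Kit, from the same list of 7, went the other way, averaging 68.9 FPKM at P40 and 42.1 FPKM at E21. With Kit, the list summed to 67.3 to 70.8 FPKM at P40 and to 50.7 to 51.4 FPKM at E21. Dividing cell genes summed to at most 20.3 FPKM at P40 and to at least 102 FPKM at E21, and pineal cell genes summed to 3660 to 4783 FPKM at P40 and to 609 to 1102 FPKM at E21. The part of these other cells in the age changes that follow was not tested. Neutrophil and monocyte genes summed to 2.28 to 9.04 FPKM. None of the 12 T, B and NK cell genes reached 1 FPKM in any library, and Cd3d and Ms4a1 were at 0 in all of them. The label of these cells held in part: C1qa, C1qb, C1qc, Csf1r, Aif1 and Tyrobp were at 1.30 FPKM or more in every library. Cx3cr1 reached 1 FPKM in 5 of the 8 libraries and Cd68 in 4. Itgam never reached 1 FPKM, and the microglial receptor genes Trem2 and P2ry12 stayed at or below 0.766 and 1.30 FPKM.

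The regions in front of 3 of the genes are shown for the letters to which the lineage's transcription factor binds. RefSeq upstream sequences were matched for 6 of the 9 genes (C1qa, C1qb, Csf1r, Cx3cr1, Itgam and Cd68), and the 250 bases before the gene start were read 5′ to 3′ along the gene's strand in build GRCr8. Capitals mark GAGGAA, the core of the PU-box bound by PU.1, or TTCCTC, the same letters on the other strand; the searched matches do not overlap. C1qa and C1qb are shown because they share a locus and their levels moved most alike within the C1q genes, and Csf1r because it marks the lineage.
C1qa, chr5:154419934-154420183, minus strand: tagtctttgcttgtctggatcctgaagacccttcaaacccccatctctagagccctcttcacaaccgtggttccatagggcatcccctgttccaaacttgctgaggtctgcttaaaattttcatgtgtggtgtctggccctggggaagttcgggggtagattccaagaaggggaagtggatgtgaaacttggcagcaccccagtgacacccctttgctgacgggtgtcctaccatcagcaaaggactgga
C1qb, chr5:154407828-154408077, minus strand: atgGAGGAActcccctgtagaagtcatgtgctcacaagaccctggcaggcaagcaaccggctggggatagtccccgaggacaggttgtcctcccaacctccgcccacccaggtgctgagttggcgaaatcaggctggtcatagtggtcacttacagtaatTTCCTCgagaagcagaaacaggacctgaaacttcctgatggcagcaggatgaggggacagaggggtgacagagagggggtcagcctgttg
Csf1r, chr18:56834129-56834378, plus strand: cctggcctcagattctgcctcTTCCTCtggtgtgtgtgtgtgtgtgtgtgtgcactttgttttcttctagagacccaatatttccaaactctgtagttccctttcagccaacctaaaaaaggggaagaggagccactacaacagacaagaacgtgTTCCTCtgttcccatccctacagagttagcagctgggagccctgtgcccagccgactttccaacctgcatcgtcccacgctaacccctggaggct
C1qb, Csf1r and Itgam held 2 matches each, Cd68 held 1, and C1qa and Cx3cr1 held 0. Of the 33469 upstream stretches of the same length in the RefSeq table, 23.3% held at least 1 match and 3.39% held 2 or more. A match of 6 letters is a description of the sequence, and a stretch without one says only that these letters are not in it.

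C1qa, the gene of the A chain, was the most abundant of the 9 at P40 and had its highest level there. At E21, P5, P20 and P40 it stood at 7.19, 4.79, 10.4 and 22.8 FPKM at mid-night, against 3.86, 2.28, 7.13 and 13.7 FPKM at mid-day. The order of the ages was the same at both times, with P5 lowest and P40 highest, and mid-night lay above mid-day at each age. C1qb, the gene of the B chain, stood at 3.94, 2.63, 2.98 and 8.43 FPKM at mid-night, against 3.65, 1.30, 3.60 and 5.22 FPKM at mid-day. Both P5 libraries lay below all the others for C1qb, and both P40 libraries lay above them. C1qc, the gene of the C chain, went another way, with 6.14, 2.77, 5.02 and 5.48 FPKM at mid-night, against 7.54, 1.70, 3.61 and 5.08 FPKM at mid-day. Its highest values were those of E21, and like C1qa and C1qb it was lowest at P5.

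Among the surface receptors, Csf1r, which encodes the receptor for the survival factors CSF1 and IL-34, was lowest at E21. It stood at 6.16, 8.47, 6.71 and 11.1 FPKM at mid-night, against 3.37, 8.04, 11.5 and 8.50 FPKM at mid-day, so the 3 postnatal ages overlap and E21 lies below them at each time. Cx3cr1, the fractalkine receptor gene, stood at 0.823, 0.755, 1.14 and 1.85 FPKM at mid-night, against 1.33, 0.756, 1.19 and 2.80 FPKM at mid-day. It was highest in the P40 libraries and lowest in the P5 libraries. Itgam, the gene of the CD11b chain of complement receptor 3, stood at 0.390, 0.449, 0.314 and 0.891 FPKM at mid-night, against 0.210, 0.176, 0.273 and 0.654 FPKM at mid-day. Itgam was the lowest of the 9 in every library, at the approximate equivalent of 4.10 to 31.8 fragments per kilobase, and both P40 libraries lay above the other 6.

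Tyrobp encodes the adaptor DAP12, through which TREM2 and related receptors signal. It stood at 3.61, 4.29, 2.49 and 6.20 FPKM at mid-night, against 2.73, 2.08, 3.12 and 5.68 FPKM at mid-day, with both P40 libraries above all others. Aif1, which encodes the cytoplasmic protein IBA1 by which microglia are stained, had 2.96, 1.76, 1.55 and 1.98 FPKM at mid-night, against 4.66, 1.44, 1.76 and 2.23 FPKM at mid-day. Both E21 libraries lay above the other 6 for Aif1. Cd68, the gene of a glycoprotein of phagocyte lysosomes, had 1.02, 1.45, 0.875 and 1.51 FPKM at mid-night, against 0.781, 0.802, 0.940 and 1.18 FPKM at mid-day. Its P5 libraries overlap with those of every other age, and its highest value was 1.51 FPKM.

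**Figure D1:**
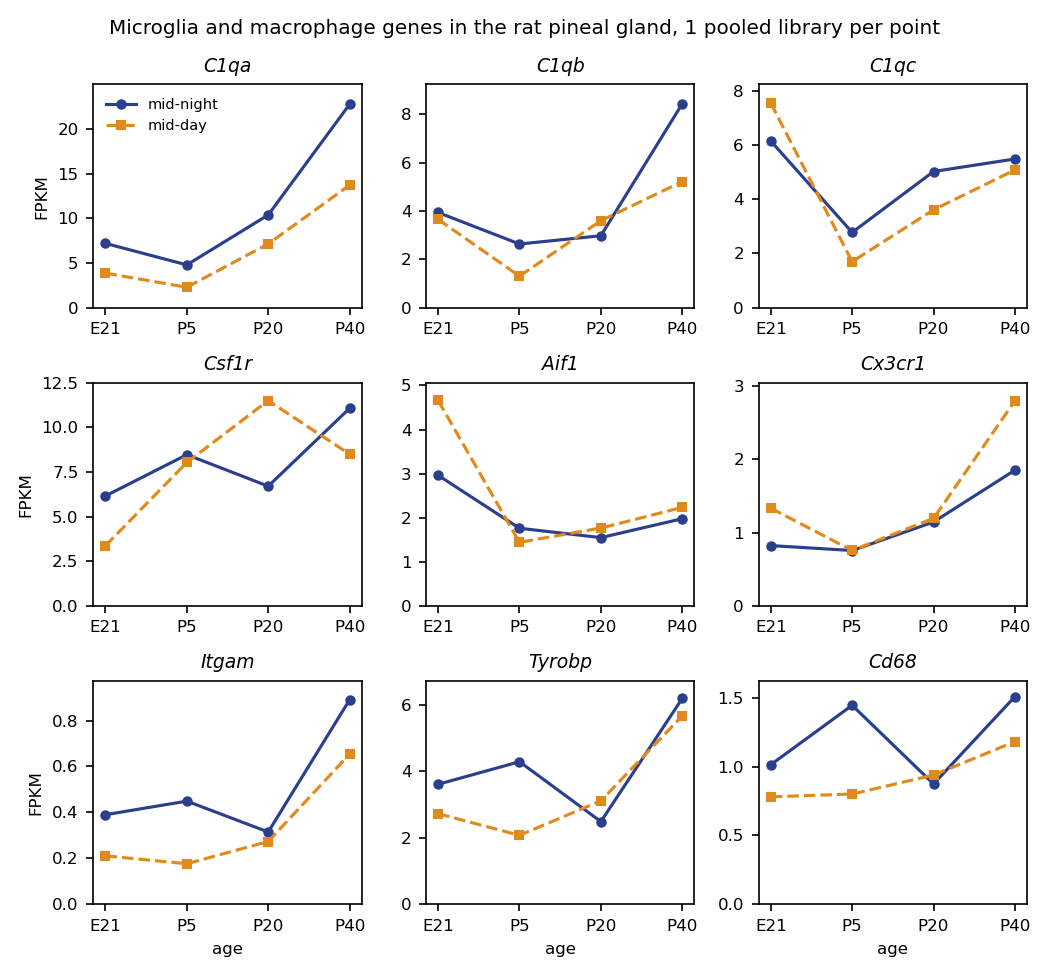
FPKM of the 9 microglia and macrophage genes (vertical axis, from 0, its own scale in each panel) at the 4 ages (horizontal axis, evenly spaced categories), with mid-night as blue circles and mid-day as orange squares, 1 pooled library for each point. C1qa reaches 22.8 FPKM at P40 mid-night and 13.7 FPKM at P40 mid-day, C1qc and Aif1 are highest at E21, and Itgam stays below 1 FPKM.

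The 9 genes summed to 32.2, 27.4, 31.4 and 60.2 FPKM at mid-night for E21, P5, P20 and P40, against 28.1, 18.6, 33.1 and 45.1 FPKM at mid-day. The most abundant of the 9 was C1qc in the E21 mid-day library, Csf1r in both P5 libraries and the P20 mid-day library, and C1qa in the other 4. Within the group, levels on the log2(FPKM + 1) scale correlated most closely over the 8 libraries for Itgam and Tyrobp (Pearson r = 0.953), C1qa and C1qb (r = 0.884) and Tyrobp and Cd68 (r = 0.883). C1qc was nearer to Aif1 (r = 0.750) than to C1qa (r = 0.495), and Csf1r and Aif1 ran opposite to each other (r = -0.777). These r describe 8 libraries that share age, time of day and depth.

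P40 against E21 asks what changed between late gestation and young adulthood. C1qa rose most, and Csf1r, Cx3cr1 and Tyrobp rose by less, while Aif1 fell. C1qb, C1qc and Cd68 did not pass the test. C1qa averaged 18.2 ± 6.40 FPKM at P40 and 5.53 ± 2.36 FPKM at E21 (mean ± SD, n = 2 libraries per age, 1 from each time of day), a log2 change of 1.57 ± 0.17 on the log2(FPKM + 1) scale (SE; limma, adjusted p = 0.000448).

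Csf1r averaged 9.79 ± 1.82 FPKM at P40 and 4.76 ± 1.97 FPKM at E21, a log2 change of 0.94 ± 0.31 (adjusted p = 0.0409). Cx3cr1 averaged 2.32 ± 0.669 FPKM at P40 and 1.08 ± 0.361 FPKM at E21, a log2 change of 0.67 ± 0.19 (adjusted p = 0.0250). Tyrobp averaged 5.94 ± 0.373 FPKM at P40 and 3.17 ± 0.627 FPKM at E21, a log2 change of 0.74 ± 0.25 (adjusted p = 0.0463). These 3 receptor and adaptor genes lay higher in both P40 libraries than in both E21 libraries. Aif1 averaged 2.10 ± 0.182 FPKM at P40 and 3.81 ± 1.20 FPKM at E21, a log2 change of -0.61 ± 0.21 (adjusted p = 0.0491).

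The log2 changes that did not pass were 0.68 ± 0.25 for C1qb (adjusted p = 0.0608), 0.31 ± 0.19 for Cd68 (adjusted p = 0.225) and -0.32 ± 0.22 for C1qc (adjusted p = 0.284). Itgam was under the 1 FPKM that a transcript had to reach in 2 libraries and was not tested; it averaged 0.772 ± 0.168 FPKM at P40 and 0.300 ± 0.127 FPKM at E21.

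Of the 8 genes tested, 5 were called at an adjusted p under 0.05, 4 higher and 1 lower, where 42.9% of all 9960 transcripts tested were called, 16.1% higher and 26.8% lower. The median log2 change was 0.68 over the 8 genes and -0.18 over all transcripts tested. Without a test, both P40 libraries lay above both E21 libraries for 6 of the 8 genes tested (28.2% of all transcripts) and below them for 2, C1qc and Aif1 (46.1%). Itgam, too, lay above in both. The call of C1qa was kept in all 18 alternatives, at adjusted p from 0.000259 to 0.0141. Those of Tyrobp and Cx3cr1 were lost without any one of the 4 libraries compared, that of Csf1r without E21 mid-day or either library of P5 or P40, and that of Aif1 without E21 mid-day or either library of P20 or P40 (adjusted p from 0.0642 to 0.342). Without E21 mid-day, P40 mid-day or P40 mid-night 1 gene was called, where 28.3%, 26.4% and 23.5% of all transcripts were, and without E21 mid-night 3 were, against 28.1%. Setting the library medians equal brings the median of all transcripts to 0.01 and the split of calls to 6 higher and 0 lower: C1qb (adjusted p = 0.0176) and Cd68 (adjusted p = 0.0381) then pass and Aif1 (adjusted p = 0.123) does not. In whole glands, more or fewer cells of a type and more or less RNA per cell cannot be told apart. The p-values rest on the spread left between pooled libraries after the terms for age and time of day. Night effects that differ between ages are part of that spread, and no spread between replicate pools could be measured.

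**Figure D2:**
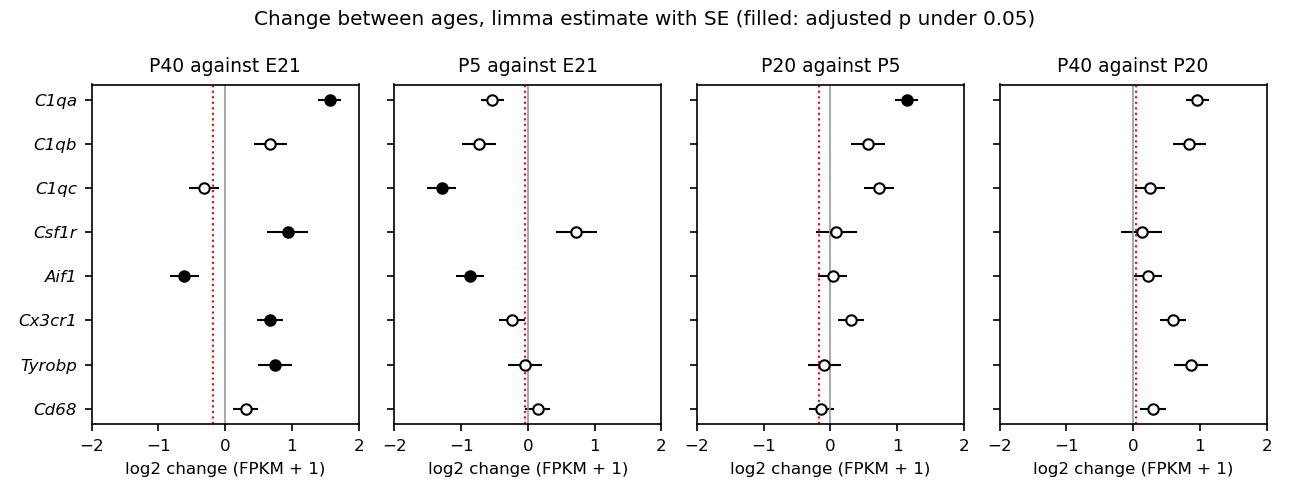
Log2 change of FPKM + 1 for the 8 genes tested (rows) between ages, 1 panel for each comparison, with bars for the standard error; filled points passed an adjusted p under 0.05 and the red dotted line is the median of all 9960 transcripts. C1qa stands farthest to the right in P40 against E21 at 1.57, C1qc farthest to the left in P5 against E21 at -1.29, and no point is filled in P40 against P20.

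The first postnatal days were marked by lower C1qc and Aif1. C1qc averaged 2.24 ± 0.761 FPKM at P5 and 6.84 ± 0.989 FPKM at E21, and fell by 1.29 ± 0.22 on the log2 scale (SE; limma, adjusted p = 0.0091). Aif1 averaged 1.60 ± 0.226 FPKM at P5 and 3.81 ± 1.20 FPKM at E21, and fell by 0.87 ± 0.21 (adjusted p = 0.0320). C1qa and C1qb had log2 changes of -0.53 (adjusted p = 0.0793) and -0.73 (adjusted p = 0.0912), which did not pass. Csf1r had the opposite sign at 0.73 (adjusted p = 0.153).

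Cx3cr1 (-0.23), Tyrobp (-0.04) and Cd68 (0.15) did not pass either. The 2 calls among 8 genes, both lower, compare with 15.1% of all transcripts called, 8.29% higher and 6.84% lower. Both P5 libraries lay below both E21 libraries for C1qb, C1qc, Aif1 and Cx3cr1 (4 of the 8 tested, against 35% of all transcripts) and above them for Csf1r (1 of 8, against 30.4%). Both calls were lost without the E21 mid-day library (adjusted p = 0.0709 for C1qc and 0.230 for Aif1) or the P5 mid-day library (0.0897 and 0.222), and that of Aif1 also without P5 mid-night or either P40 library (0.0530 to 0.0590). The high choroid plexus sum of the P5 mid-night library and the high erythroid sums of E21 stand beside these changes, and their part in them was not tested.

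C1qa rose between P5 and P20. It averaged 8.75 ± 2.29 FPKM at P20 and 3.53 ± 1.77 FPKM at P5, a log2 change of 1.14 ± 0.17 (SE; limma, adjusted p = 0.0118). C1qc averaged 4.31 ± 0.998 FPKM at P20 and 2.24 ± 0.761 FPKM at P5, a log2 change of 0.72 (adjusted p = 0.0954) that did not pass. C1qb averaged 3.29 ± 0.439 FPKM at P20 and 1.97 ± 0.941 FPKM at P5, a log2 change of 0.56 (adjusted p = 0.214) that did not pass either. The call of 1 gene in 8 compares with 7.02% of all transcripts called, 1.02% higher and 5.99% lower. Both P20 libraries lay above both P5 libraries for the 3 C1q genes and Cx3cr1 (4 of 8, against 11.3% of all transcripts) and below them for 0 of 8 (against 41.4%). The call of C1qa was lost without any one of the 4 libraries compared (adjusted p from 0.0658 to 0.104) and without the term for time of day (0.120).

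Between P20 and P40 no gene of the group was called, and neither was any of the 9960 transcripts (0%, with 669 at an unadjusted p under 0.05). The values of the group nevertheless lay higher at P40. Both P40 libraries stood above both P20 libraries for 8 of the 9 genes, all but Csf1r, or 7 of the 8 tested, where this held for 18.7% of all transcripts. Both stood below for 0 of 8, where 11% of all transcripts did so. The log2 changes were 0.96 for C1qa (adjusted p = 0.184), 0.87 for Tyrobp (0.472), 0.84 for C1qb (0.481) and 0.60 for Cx3cr1 (0.540).

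Tyrobp averaged 5.94 ± 0.373 FPKM at P40 and 2.80 ± 0.443 FPKM at P20, so its values at P40 lay apart from those of the 3 younger ages. Itgam, which was not tested, averaged 0.772 ± 0.168 FPKM at P40 and 0.293 ± 0.0293 FPKM at P20. The mean level of Csf1r at P5, 8.26 ± 0.309 FPKM, was already closer to that of P40 than to that of E21, though its change between those younger ages did not pass. The P40 pools hold 3 animals each and those of P20 hold 10 and 13, and the effect of pool size cannot be told apart from age.

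A test of any change over the 4 ages called C1qa (adjusted p = 0.0005), C1qc (0.0127), C1qb (0.0167), Cx3cr1 (0.0305) and Aif1 (0.0374). Csf1r (0.120), Tyrobp (0.0721) and Cd68 (0.477) did not pass. The 5 calls among 8 genes compare with 36.4% of all transcripts. Without the P5 mid-day library 1 gene was called (31% of all transcripts) and without P40 mid-night 2 (26.4%). Without E21 mid-day, E21 mid-night or P40 mid-day 3 were called, against 23.4%, 24.3% and 26.8% of all transcripts.

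The 3 C1q genes did not keep a fixed proportion, although their chains enter the protein in equal number. In the rn4 coordinates of the files they stand in a row on chromosome 5, C1qb at chr5:155647523-155653072, C1qc at chr5:155656104-155659430 and C1qa at chr5:155662333-155665180. The gaps between them are 3031 and 2902 bp, and the 3 genes fit into 17658 bp. The ratio of C1qa to C1qc in FPKM was 1.17, 1.72, 2.07 and 4.15 at mid-night for E21, P5, P20 and P40, against 0.512, 1.34, 1.98 and 2.70 at mid-day.

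The ratio was higher at each later age at both times of day, and it spans values below 1 in the E21 mid-day library and above 4 in the P40 mid-night library. C1qa made up 41.6%, 47.0%, 56.5% and 62.1% of the summed C1q FPKM at mid-night, against 25.6%, 43.2%, 49.8% and 57.1% at mid-day. The share of C1qc was 35.6%, 27.2%, 27.3% and 14.9% at mid-night, against 50.1%, 32.1%, 25.2% and 21.1% at mid-day. C1qb stayed between 16.2% and 25.8%, and showed no such order. This ratio was chosen after the values were seen and carries no test.

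**Figure D3:**
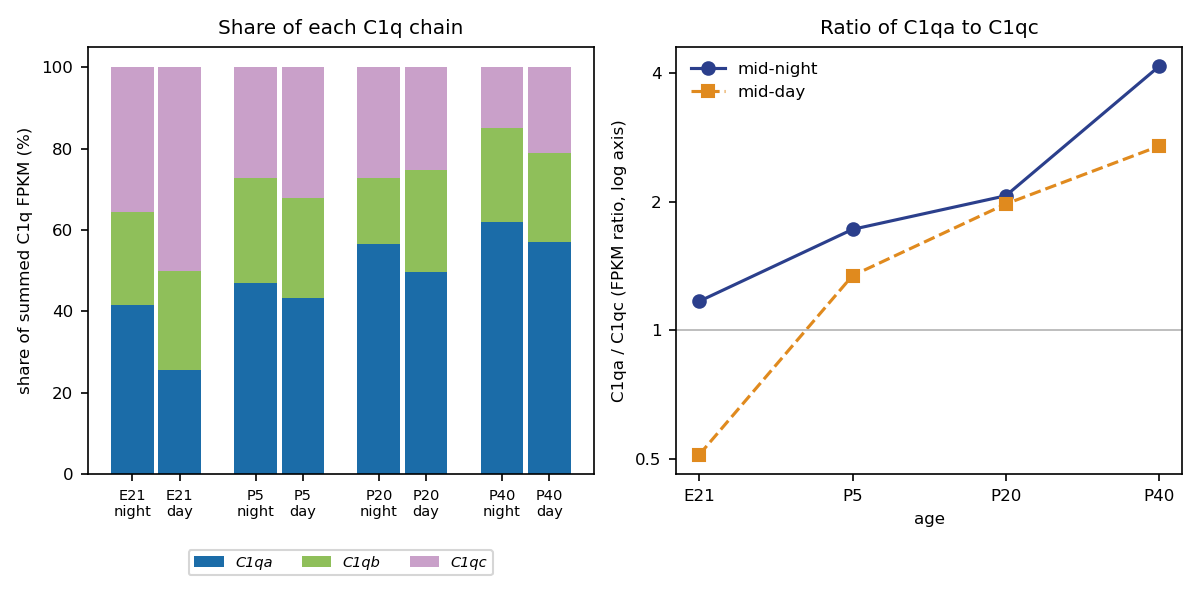
Left, share of each C1q gene in the summed FPKM of the 3 genes (%), with 1 bar for each library; right, ratio of C1qa to C1qc in FPKM on a log axis, with mid-night as blue circles, mid-day as orange squares and ages evenly spaced. The C1qa share runs from 25.6% in the E21 mid-day library to 62.1% in the P40 mid-night library, and both lines climb at every step of age.

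Mid-night against mid-day was compared over the 4 ages, with age as a term. C1qa stood higher at mid-night at each age, by ratios of 1.86 at E21, 2.10 at P5, 1.45 at P20 and 1.66 at P40. Its log2 difference was 0.69 ± 0.12 (SE; limma, unadjusted p = 0.0006), and with an adjusted p of 0.474 it did not pass. No transcript of the 9960 passed (0%, with 1011 at an unadjusted p under 0.05), and so 0 of the 8 genes did. With separate night effects for the older and younger ages, 4.39% of all transcripts passed at P20 and P40 and 0.0301% at E21 and P5, with 0 of the 8 genes each time; C1qa had 0.59 at P20 and P40 (adjusted p = 0.0899, and 0.0431 with library medians set equal). Mid-night lay above mid-day at 4 of 4 ages in 6.96% of all transcripts tested, and among the 9 genes for C1qa and Itgam.

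Cx3cr1 lay above at 0 ages and Aif1 at 1, and the other 5 genes did so at 3 of 4 ages. At P5, C1qa, C1qb, Itgam and Tyrobp had mid-night values over 2 times those of mid-day. The P5 mid-night library also held the high choroid plexus sum, whose part in this was not tested. The difference between the night effects of P20 and P40 and those of E21 and P5 was called for 0 of the 8 genes and for 0.753% of all transcripts. Tyrobp had the value farthest from 0, at -0.61 on the log2 scale (adjusted p = 0.399).

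Other genes known from microglia were called in both directions between E21 and P40. Of 15 found, 7 were tested, 2 rose and 3 fell, against 16.1% higher and 26.8% lower over all transcripts, and the median log2 change was 0.43, against -0.18 for all transcripts. Cst3, which encodes the protease inhibitor cystatin C that many cells secrete, rose by 1.98 (adjusted p = 0.0196), a call lost without E21 mid-night or either P40 library. P2ry6, a nucleotide receptor gene, rose by 1.80, with 3.59 and 2.65 FPKM at P40 mid-night and mid-day, against 0.112 and 0.246 FPKM at E21.

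Tmem119, a gene of the microglial surface, fell by 1.38, with 0.630 and 0.556 FPKM at P40 mid-night and mid-day, against 4.03 and 2.40 FPKM at E21. Outside E21 it reached 1 FPKM at P5 mid-night alone (1.39 FPKM), so it was tested only because it is high at E21. Olfml3, which encodes a secreted matrix protein, fell by 1.89, and Tgfbr1, a receptor gene of the TGF-beta pathway, by 0.74, the last a call lost without either E21 library or P40 mid-night. Sall1, a transcription factor gene (0.43, adjusted p = 0.131), did not pass. P2ry6 and Tmem119 were picked for mention after their values were seen. P2ry12, a purine receptor gene, had 0.413, 0.572, 0.947 and 1.30 FPKM at mid-night for E21, P5, P20 and P40, against 0.352, 0.470, 0.899 and 0.656 FPKM at mid-day. It stood under the level needed for a test, as did Trem2, which ran between 0.175 and 0.766 FPKM. Csf1r and Tmem119 had opposite signs between E21 and P40, but Tmem119 entered the test through its E21 libraries, so no contrast is drawn from this.

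Genes of perivascular and border macrophages that could be tested fell. Of 10 found, 3 were tested, and all 3 were called lower at P40 than at E21, where 26.8% of all transcripts were. Lyve1, a hyaluronan receptor gene, fell by 1.61 (adjusted p = 0.000464), and Mrc1, the mannose receptor CD206, by 1.48. F13a1, the coagulation factor XIII A chain, fell by 1.58, but reached 1 FPKM in its E21 libraries alone and so was tested only because it is high there. Lyve1 had 0.607 and 0.594 FPKM at P40 mid-night and mid-day, against 4.19 and 3.62 FPKM at E21. Mrc1 had 0.558 and 0.846 FPKM at P40, against 4.98 and 2.74 FPKM at E21.

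Cd163, a haemoglobin scavenger receptor gene under the level needed for a test, had 0.0560 and 0.0295 FPKM at P40, against 1.85 and 0.933 FPKM at E21. It is not among the 4 genes of highest mean FPKM in this list. Among the other genes not tested, Clec12a (0.299 FPKM at E21 and 0.806 FPKM at P40) and Siglec1 (0.105 and 0.116) averaged higher at P40. Clec10a (0.762 and 0.654), Folr2 (0.430 and 0.401), Pf4 (0.627 and 0.127) and Ms4a7 (0.0126 and 0.00945) averaged lower. The highest value of Clec10a was 0.857 FPKM, at P40 mid-night. The 10 genes summed to 11.9 to 15.8 FPKM at E21, 4.35 to 6.96 FPKM at P5, 4.43 to 5.28 FPKM at P20 and 3.34 to 3.91 FPKM at P40. Aif1 and C1qc were the 2 of the 9 genes with their highest levels at E21. The part of border macrophages in the values of any of the 9 genes was not tested.

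**Figure D4:**
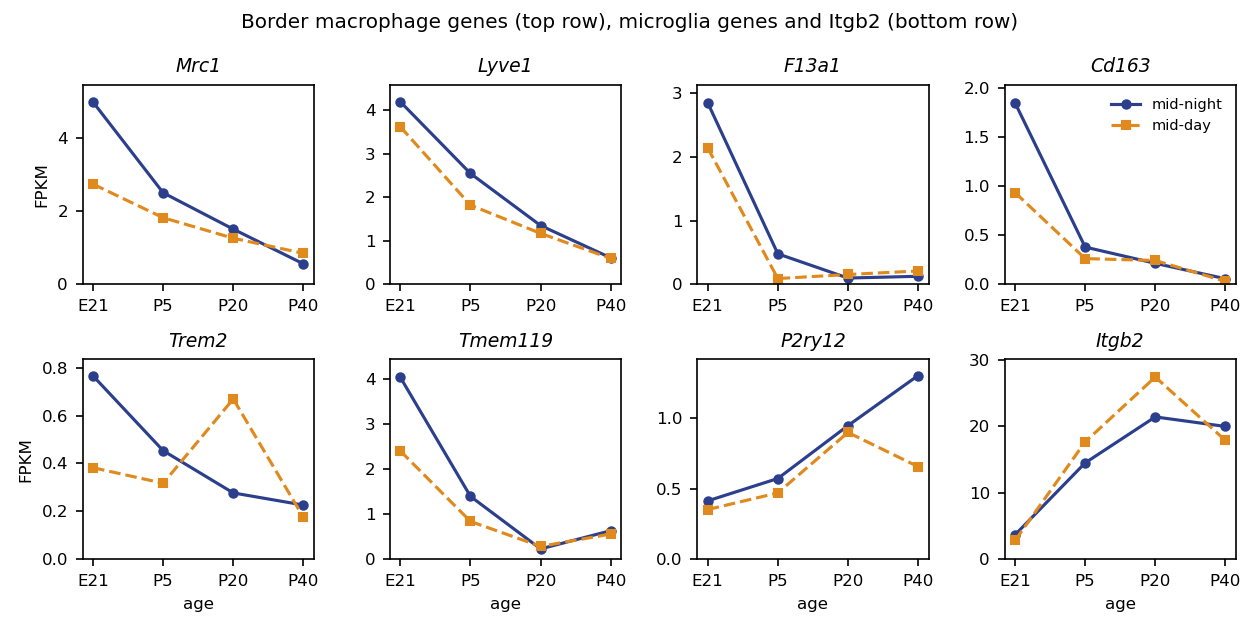
FPKM (vertical axis, from 0, its own scale in each panel) of the border macrophage genes Mrc1, Lyve1, F13a1 and Cd163 in the top row and of Trem2, Tmem119, P2ry12 and Itgb2 in the bottom row, at the 4 ages as evenly spaced categories, with mid-night as blue circles and mid-day as orange squares. The border macrophage genes shown here and Tmem119 are highest at E21, where Mrc1 has 4.98 and 2.74 FPKM, while Itgb2 is lowest there at 3.67 and 2.81 FPKM. Other genes of the border macrophage list are not shown, and some of them are not highest at E21.

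The ligands and factors around CSF1R moved unevenly. Of 4 tested from this list of 9, 2 rose, Il34 and Irf8, and 1 fell, with a median of 0.29. Over all transcripts 16.1% were called higher and 26.8% lower, and the same shares stand behind the TYROBP list and the ligand list that follow. Il34, the gene of the ligand IL-34, had 3.95 and 1.76 FPKM at P40 mid-night and mid-day, against 1.30 and 0.925 FPKM at E21, a log2 change of 0.81 (adjusted p = 0.0350) that was lost without either library of E21 or P20 or without P40 mid-night. Csf1, the gene of the other ligand, had a log2 change of -0.23 (adjusted p = 0.455), whose sign turned to 0.037 with quantile normalization. Irf8, a transcription factor gene of microglia and of lymphoid cells, rose by 1.43, a call lost without E21 mid-night or P40 mid-night. It had 9.52 and 2.48 FPKM at P40 mid-night and mid-day, against 1.55 and 0.987 FPKM at E21, with 7.34 and 6.96 FPKM already at P5, and it was called higher at mid-night at P20 and P40 by 1.73 (adjusted p = 0.00248). Spi1, the gene of PU.1, stayed between 0.187 and 0.585 FPKM in all 8 libraries and was not tested.

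Around TYROBP, Plcg2, which encodes a phospholipase downstream of such receptors, rose by 2.06 (adjusted p = 0.000556). Fcer1g, an adaptor gene of the same kind as Tyrobp, had 7.22 and 6.51 FPKM at P40 mid-night and mid-day, against 3.62 and 4.52 FPKM at E21, a log2 change of 0.64 (adjusted p = 0.0613) that did not pass. Syk, the kinase gene that follows both adaptors, had 0.17 (adjusted p = 0.507), and these 3 of 9 genes found were those tested, with a median of 0.64. Cx3cl1, the fractalkine gene, rose by 0.77, with 1.34 and 1.95 FPKM at P40 mid-night and mid-day, against 0.690 and 0.400 FPKM at E21, a call lost without either mid-day library.

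Cd47, the gene of the signal that holds phagocytosis back, and Sirpa, its receptor gene, rose by 1.75 and 1.42. Cd200, the gene of another such signal, fell by 0.72, a call lost without any one of the 4 libraries compared. The median of the 4 tested in this list of 5 was 1.10, and neurons, pinealocytes and other cells also express its ligand genes.

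Complement genes beyond C1q were higher at P40. Of 12 tested among 15 found, 10 rose and 0 fell, against 16.1% higher and 26.8% lower over all transcripts, with a median log2 change of 1.33. C3 and Cfb, which are among those that rose, reached 1 FPKM outside P40 at P20 mid-night alone (1.18 and 1.25 FPKM). They were thus tested only because they are high at P40. Itgb2, the gene of the CD18 chain that pairs with CD11b, rose by 2.24 (adjusted p = 0.000201), to 20.0 and 17.9 FPKM at P40 mid-night and mid-day, against 3.67 and 2.81 FPKM at E21. Itgb2 had already reached 14.5 and 17.7 FPKM at P5, whereas its partner gene Itgam stayed below 1 FPKM, and the ratio of Itgb2 to Itgam in FPKM ran from 9.41 to 100.6 over the libraries. Serping1, the gene of the inhibitor of C1r and C1s, rose by 2.01, with 62.5 and 62.8 FPKM at P40, against 13.5 and 16.2 FPKM at E21.

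C3, the central component, rose by 2.03, with 3.87 and 3.01 FPKM at P40, against 0.0655 and 0.101 FPKM at E21. Cd59, the gene of an inhibitor of the terminal complex, rose by 1.19, a call lost without E21 mid-night or either P40 library, and Cr1l, listed as 2 transcripts, had 0.42 (adjusted p = 0.104) and did not pass. Many of these genes are also expressed by cells other than macrophages.

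Of the genes for phagocytosis and Fc receptors, 2 of 7 tested rose and 0 fell, with a median of 0.46, against 16.1% higher and 26.8% lower over all transcripts. One of these, Fcgr3a, an Fc receptor gene, reached 1 FPKM in its P40 libraries alone, at 1.43 FPKM in both, and so was tested only because it is high there. Mfge8, which encodes a bridging protein for dying cells and is listed as 2 transcripts, rose by 2.55, and Gas6 (0.46, adjusted p = 0.368), Pros1 (-0.53, adjusted p = 0.0656) and Axl did not pass. Axl had a log2 change of -0.08 (adjusted p = 0.842), with 0.11 under median centring and 0.15 under quantile normalization. Of the lysosome and phagocyte activation genes, 8 of 14 tested rose and 1, Spp1, fell, with a median of 0.70, against 16.1% higher and 26.8% lower over all transcripts.

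The highest single values were 159.9 FPKM in the phagocytosis list and 611.5 FPKM in the lysosome list, against 22.8 FPKM among the 9 genes. The part of other cells in these 2 lists was not tested. Apoe, the lipid carrier gene, rose by 3.50, with 371.7 and 453.8 FPKM at P40 mid-night and mid-day, against 35.6 and 35.1 FPKM at E21. Lpl, a lipase gene, rose by 1.54 and Ctsd, the cathepsin D gene, by 0.70, the last a call lost without any 1 library of E21, P5 or P40. Ctsb, the cathepsin B gene, did not pass (0.52, adjusted p = 0.0892). Ctss, the gene of cathepsin S, a protease of antigen-presenting cells that was picked after its values were seen, rose by 2.02, with 12.7 and 11.3 FPKM at P40, against 2.40 and 2.03 FPKM at E21. Cd68, the gene of a glycoprotein of phagocyte lysosomes, showed no change past the test.

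Of the pan-leukocyte genes, 1 of 6 tested rose and 0 fell, with a median of 0.36, against 16.1% higher and 26.8% lower over all transcripts. Coro1a, which did not pass, was tested only through its P40 libraries. Lcp1, the gene of an actin bundling protein of leukocytes, rose by 1.60 (adjusted p = 0.0174), a call lost without E21 mid-night or either P40 library. Cd48 (-0.32, adjusted p = 0.226), Laptm5 (0.27, adjusted p = 0.294) and Arhgdib (-0.27, adjusted p = 0.353) did not pass. Ptprc, the gene of CD45, is listed as 5 transcripts, and the one that stands for it ran between 0 and 1.95 FPKM. This transcript had 1.95 FPKM at P40 mid-day, 0.0361 FPKM at P40 mid-night and 0 FPKM in the E21 and P5 libraries. The other transcripts are not reported here, so these values do not give the level of the whole gene.

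**Figure D5:**
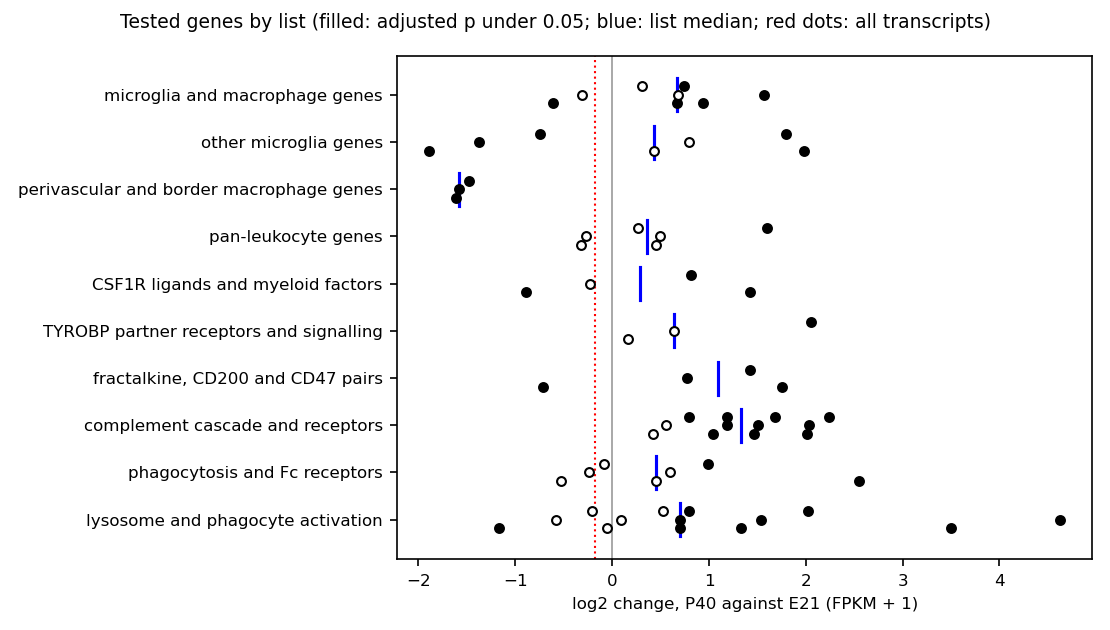
Log2 change of FPKM + 1 between P40 and E21 for each tested gene of 10 lists (rows); filled points passed an adjusted p under 0.05, blue bars are list medians, and the red dotted line is the median of all transcripts at -0.18. The complement list has 10 filled points right of 0 and none left of it, the border macrophage list has 3 filled points near -1.5, and the 8 microglia and macrophage genes have 4 filled points right of 0 and 1 left of it.

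The transcripts whose pattern over the 8 libraries was most like the mean of the 9 genes were found among 6515 with at least 5 FPKM in 2 libraries. Among the nearest were Ormdl2 (r = 0.957), Eef2k (0.946), Tmem106c (0.935), Tln1 (0.923), Smpd1 (0.916), Synrg (0.914), Stip1 (0.913), Bbx (0.907) and Cept1 (0.904). For single genes the nearest were Dirc2, Eya2 and Slc16a1 for C1qa (r = 0.963, 0.960 and 0.949) and Tln1, Tmem106c and Stip1 for C1qb (0.956, 0.948 and 0.942). Topors, Phf3 and Ifitm3 were nearest to C1qc (0.952, 0.952 and 0.913).

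Sgsm3, Ganab and Gart were nearest to Csf1r (0.963, 0.960 and 0.957), Atf2, Zfp148 and Rala to Aif1 (0.977, 0.972 and 0.970), and Senp8, Lsmd1 and Gspt1 to Cx3cr1 (0.970, 0.962 and 0.953). Eef2k, Fndc3a and Gsr were nearest to Tyrobp (0.963, 0.921 and 0.912), and Gsr, Cog6 and Nat15 to Cd68 (0.959, 0.944 and 0.912). Nat15, RGD1566149 and Gtf2b were nearest to Itgam (0.963, 0.948 and 0.920). No other gene of the 9 appeared in these lists because they were left out of the search, and with 8 libraries and many candidates high r values arise readily, so no shared role is read from them.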

How the data were processed

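RNA of pooled pineal glands was enriched for polyadenylated RNA, primed with random primers and read as paired ends, per the labels' protocols. Per the submitters' processing notes, the tools were TopHat 1.3.1 and Cufflinks 1.2.0 and the build was rn4, and the authors deposited FPKM for each RefSeq transcript. Filters and further scaling are not given in the sources used here. The series values and the values of the single samples were the same in all 8 libraries. Read counts were not used here, so no counting intervals are given. Lanes are not given and could not be checked as batches.

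The scale of analysis was log2(FPKM + 1), on which changes of low transcripts are understated. The 9960 transcripts with at least 1 FPKM in 2 libraries entered two-sided tests of limma 3.58.1 (R 4.3.3, eBayes with a trend), called at a Benjamini-Hochberg adjusted p under 0.05 over all of them. Terms were age and time of day in one model (3 residual degrees of freedom) and, in another, age and separate night effects for E21 with P5 and P20 with P40 (2 residual degrees of freedom). The code was tested on simulated data. Starts in the files count from 0 and are printed from 1.

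The 9 genes and all lists were chosen with earlier results of these data known. Named from each list were the up to 4 genes of highest mean FPKM and genes whose products act with those of the 9; others are marked where named, and some genes are not reported here. Alternatives were pseudocounts, filters, scaling, the model terms and leaving out libraries. Sequences are from RefSeq (GRCr8).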

Additional observations from a re-analysis of the deposited data

How the results depend on the processing

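The count of members called between P40 and E21 (5) was 3 with a pseudocount of 0.1, 3 with no filter, 2 with a filter at 5 FPKM (5 members tested) and 3 without the term for time of day. Leaving out 1 library gave 1 to 5, with 1 without the E21 mid-day, P40 mid-day or P40 mid-night library and 3 without the E21 mid-night library. For P5 against E21 (2 members) it was 1 with no filter, 1 with a filter at 5 FPKM and 0 to 2 leaving out 1 library. For P20 against P5 (1 member) it was 2 with quantile normalization, where C1qc passed, 0 without the term for time of day and 0 to 1 leaving out 1 library. For any change over the ages (5 members) it was 3 with no filter, 3 with a filter at 5 FPKM, 3 without both P5 libraries and 1 to 6 leaving out 1 library. For P40 against P20, mid-night against mid-day and the difference of night effects it was 0 in every alternative run.

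The sign of some changes that had not passed turned. For P5 against E21, Tyrobp ran from -0.40 to 0.32 when 1 library was left out, with 0.32 without P5 mid-day and 0.0055 without E21 mid-night, and Cd68 ran from -0.017 (without P5 mid-night) to 0.31. For P40 against E21, Arhgdib ran from -0.557 to 0.017 (without P40 mid-night) when 1 library was left out, Csf1 gave 0.037 with quantile normalization, and Axl gave 0.11 with median centring, 0.15 with quantile normalization and -0.559 to 0.40 leaving out 1 library, above 0 without E21 mid-night or P40 mid-night. The cause was not tested for any of these. Of the calls between P40 and E21, that of Aif1 was lost in 10 of 17 alternatives, those of Csf1r and Tyrobp in 8 of 18 each and that of Cx3cr1 in 4 of 17, while C1qb gained one in 5 of 18. Ages were compared with time of day as a term, and mid-night with mid-day with age as a term. A combination of age and time has no second library, so no spread within a combination could be measured. Itgam, Trem2, Spi1 and P2ry12 were too low to be tested.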
